A study of Mus musculus with 12 samples.

Results

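The MHC class II genes described here were 9 listed genes of the antigen presentation pathway: the class II chains H2-Aa, H2-Ab1 and H2-Eb1, the invariant chain Cd74, the peptide editors H2-DMa, H2-DMb1, H2-Oa and H2-Ob, and the transcriptional regulator Ciita. They were found by gene symbol in the probe annotation, and where a gene had several probe sets, the brightest on average stood for it. Of the 18194 genes measured, 8 were members, since H2-DMb1 is annotated only together with H2-DMb2 on its probe sets and so had no value of its own. All 8 measured members passed the filter on low values, which kept 10287 genes with a log2 intensity above 4 on at least 3 of 12 arrays.

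The study profiled B220-positive cells, isolated from bone marrow with magnetic beads, on Affymetrix MOE430 2.0 arrays. There were 3 biological replicates in each of 4 groups: precancerous Eμ-Myc;Eµ-TTP-1 mice (called Myc TTP below), precancerous Eμ-Myc mice (Myc), Eµ-TTP-1 mice (TTP), and wild-type mice. All were littermates aged 4 to 6 weeks on a background that was 94% C57BL/6. Both transgenes are named for Eµ, the immunoglobulin heavy chain enhancer, which drives expression in B-lineage cells from their early stages on, so each transgene acts in B cells rather than in the whole animal. The labels give no number for the TTP line beyond its name, and whether each sample came from 1 mouse or a pool is not given in the sources used here.

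MHC class II molecules are pairs of an alpha and a beta chain that present peptides from endocytosed antigen to CD4 T cells, and B cells, dendritic cells and macrophages carry them. The chains assemble with the invariant chain, which is cut down in the endosome to the fragment CLIP. H2-DM exchanges CLIP for peptide, and H2-O, which is most abundant in B cells, holds H2-DM back. Ciita is the coactivator that class II genes need. It does not bind DNA but sits on factors of the X, X2 and Y boxes of these promoters, namely the RFX complex, CREB and NF-Y.

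Promoter sequences of 6 of the 9 members were found in RefSeq (GRCm38.p6), as 250 bases before and 50 after the gene start. They are shown because the X-box core and the Y box are the letters through which Ciita reaches these genes. Both were searched on both strands, as GCAAC and TGATTGG, and their letters were chosen after the sequences had been seen. The order GCAAC, then 15 to 35 bases, then TGATTGG on 1 strand was found in 67 of 32851 promoters of the same length (0.204%), while TGATTGG alone was in 7.82% and GCAAC alone in 35.2%. The 2 motifs do not overlap each other. The pair was in 4 members, H2-Aa, H2-Eb1, H2-Oa and H2-Ob, and these lines give the 150 bases before each start, 5′ to 3′ on the gene's strand, with both motifs in capitals.
H2-Aa, chr17:34287824-34287973, minus strand: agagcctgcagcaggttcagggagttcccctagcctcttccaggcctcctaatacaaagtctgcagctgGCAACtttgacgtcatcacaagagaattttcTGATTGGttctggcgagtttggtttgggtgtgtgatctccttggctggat
H2-Eb1, chr17:34305717-34305866, plus strand: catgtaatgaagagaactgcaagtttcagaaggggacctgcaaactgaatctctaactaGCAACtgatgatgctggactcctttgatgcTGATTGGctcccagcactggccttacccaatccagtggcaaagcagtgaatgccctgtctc
H2-Oa, chr17:34092229-34092378, plus strand: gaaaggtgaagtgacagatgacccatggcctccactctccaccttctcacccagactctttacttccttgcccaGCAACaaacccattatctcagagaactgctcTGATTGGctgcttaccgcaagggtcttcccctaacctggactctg
H2-Ob, chr17:34238755-34238904, plus strand: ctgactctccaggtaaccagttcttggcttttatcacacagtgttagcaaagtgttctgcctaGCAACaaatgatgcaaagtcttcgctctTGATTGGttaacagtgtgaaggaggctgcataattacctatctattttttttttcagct

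The first bases of GCAAC and TGATTGG lay at -81 and -50 in H2-Aa, at -91 and -61 in H2-Eb1, at -76 and -45 in H2-Oa, and at -87 and -59 in H2-Ob, counted back from the start. The bases between the motifs numbered 26 in H2-Aa, 25 in H2-Eb1, 26 in H2-Oa and 23 in H2-Ob. Across all promoters the pair was in 61 genes, 5 of them class II genes, with H2-Eb2 as the other one. The H2-DMb1 window held TGATTGG without the pair, and neither listed window of H2-DMa held TGATTGG. H2-Oa and H2-Ob, which were called in the comparisons that follow, and H2-Eb1, which was not, thus all held the pair.

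The labels were first set against the transgenes. Myc had a log2 intensity of 11.82 to 13.37 in the Myc TTP group and 12.99 to 13.92 in the Myc group, against 9.65 to 10.39 on 4 of the 6 arrays without the Myc transgene. The array labelled TTP 3 had 13.47 and the array labelled wild type 3 had 12.65, within the range of the Myc groups, so results that rest on these 2 arrays are given with and without them. Zfp36, which encodes TTP, had 7.47 to 9.18 on the Myc TTP arrays against 9.28 to 9.997 on the Myc arrays, and 9.78 to 9.89 on the TTP arrays against 9.80 to 10.70 on the wild-type arrays. Whether its probe set lies within the transgene is not given in the sources used here. Of the defining B-lineage genes, 8 were measured and all passed the filter, with a mean log2 intensity of the list between 12.18 and 13.46 on every array. S100a8, a granulocyte gene named after its values were seen, was bright as well. It had 11.98 to 15.66 on the 6 arrays with Myc and 15.50 to 16.12 on the 6 without it.

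The DO molecule, an inhibitor of peptide exchange made of the H2-Oa and H2-Ob chains, was the part of the pathway with the largest spread among the members. The SD over the 12 arrays was 0.83 for H2-Oa and 0.74 for H2-Ob on the log2 scale, against 0.22 to 0.40 for the other 6 members. H2-Ob had log2 intensities of 11.37, 11.26 and 11.95 on the Myc TTP arrays, 11.04, 11.74 and 11.76 in the Myc group, 13.18, 13.03 and 11.93 on the TTP arrays, and 12.89, 12.86 and 12.43 on the wild-type arrays. Every Myc array lay below every wild-type array, and the only overlap among the groups with and without Myc was that Myc TTP 3 lay just above TTP 3.

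H2-Ob fell 2.32-fold in Myc over wild type, a log2 difference of -1.21 ± 0.33 (SE of the fit, n = 3 each, limma adjusted p = 0.0479). It was the 1 member of 8 called in that comparison, in which limma called 10.6% of all 10287 genes lower at an adjusted p under 0.05, so the members' share was close to that of all genes. The groups of 5 members were lower in Myc without overlap, H2-Aa, H2-Ab1, Ciita, H2-Oa and H2-Ob, beside 41.3% of all genes. The H2-Ob call was close to its threshold: leaving out any one of wild type 1, wild type 2, TTP 1, Myc 1, Myc 2 or any single Myc TTP array ended it, with adjusted p-values of 0.0588 to 0.194. Without Myc 1 the difference was -0.98. The call was also lost without the filter, under either other normalization, with another choice of probe sets, without the intensity trend and with the replicate number as a block, with adjusted p-values of 0.0514 to 0.0846.

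H2-Oa had log2 intensities of 8.39, 7.75 and 7.88 on the Myc TTP arrays, 7.50, 7.75 and 8.41 in the Myc group, 9.35, 9.91 and 7.92 on the TTP arrays, and 9.14, 9.76 and 8.56 on the wild-type arrays. The low value among the TTP arrays was again the array numbered 3, which lay inside the range of the Myc groups. H2-Oa differed by -1.27 ± 0.48 in Myc over wild type, the numerically largest difference of a member, but it did not pass the test (limma adjusted p = 0.0801).

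Averaged over both TTP backgrounds, which sets 6 arrays with the Myc transgene against 6 without it, 3 of the 8 members fell: H2-Ob, H2-Oa and Cd74. In this comparison limma called 24.6% of all genes lower. H2-Ob averaged 11.52 with Myc and 12.72 without it, a 2.3-fold difference (-1.20 ± 0.23, limma adjusted p = 0.0169), and H2-Oa averaged 7.95 with Myc and 9.11 without it, a 2.23-fold difference (-1.16 ± 0.34, limma adjusted p = 0.0222). H2-Ob stayed called when any 1 array was left out, with adjusted p-values of 0.00153 to 0.0474. H2-Oa missed the threshold without wild type 1, wild type 2, TTP 1, TTP 2, Myc 1, Myc 2 or Myc TTP 2, with adjusted p-values of 0.0501 to 0.0589. In bulk samples such as these, fewer cells of a type and less RNA per cell cannot be told apart.

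**Figure D1:**
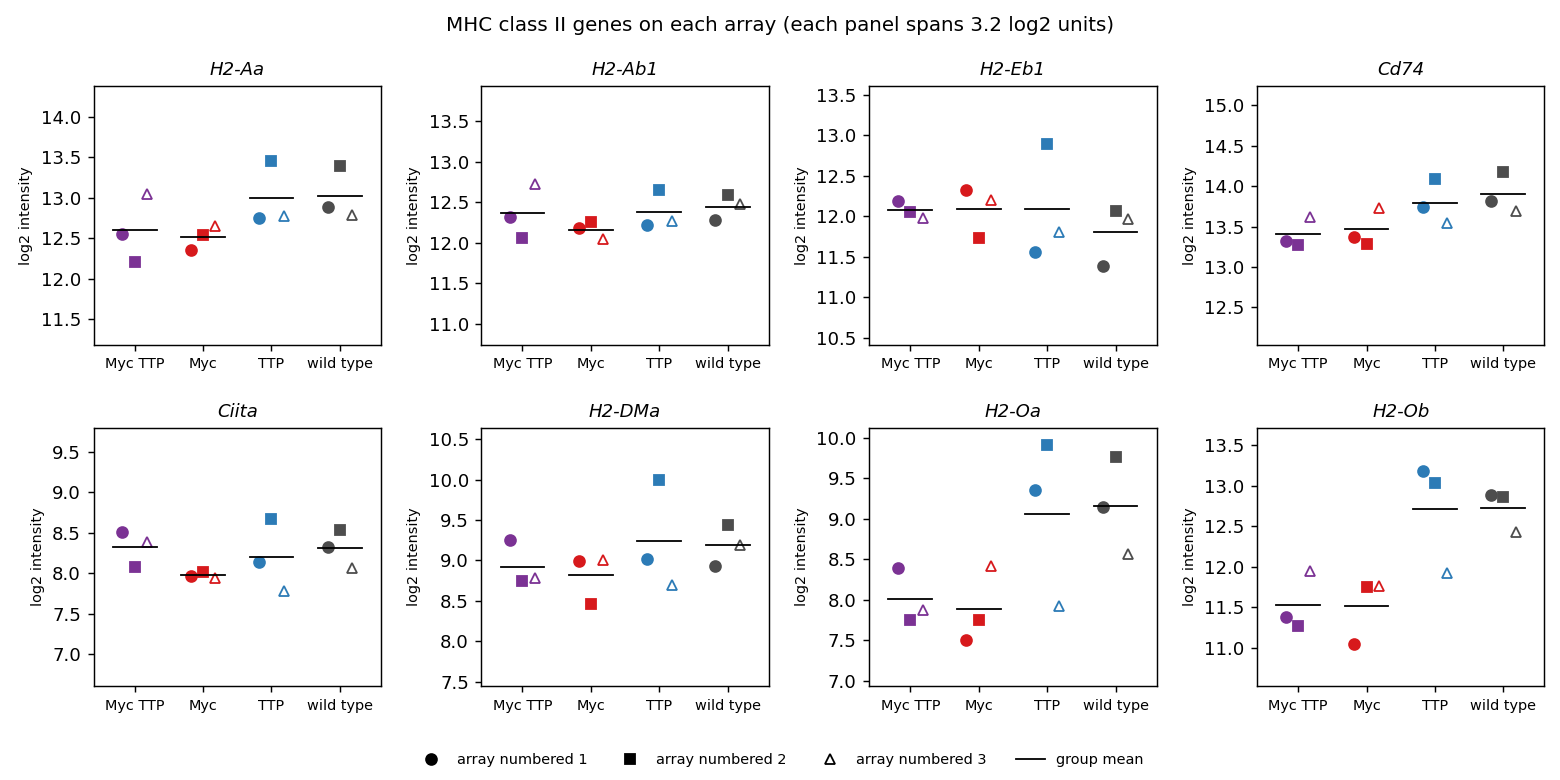
Log2 intensity (vertical axis) of the 8 measured members on each of the 12 arrays, by group (horizontal axis); symbols mark the array number and lines the group means. The H2-Oa and H2-Ob means are lower in the Myc TTP and Myc groups than in the TTP and wild-type groups, with the open triangle of TTP 3 (7.92 for H2-Oa and 11.93 for H2-Ob) down among the Myc arrays, while the H2-Eb1 groups overlap.

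The invariant chain Cd74, which blocks the peptide groove of newly made class II molecules and guides them to the endosome, was bright on every array. Its log2 intensity was 13.33, 13.27 and 13.62 on the Myc TTP arrays, 13.37, 13.29 and 13.73 in the Myc group, 13.75, 14.09 and 13.55 on the TTP arrays, and 13.82, 14.18 and 13.69 on the wild-type arrays. The 4 lowest values were all on arrays with the Myc transgene, and Myc 3 lay between wild type 3 and wild type 1. Cd74 fell 1.33-fold over both backgrounds (-0.41 ± 0.13, limma adjusted p = 0.0267), with a smaller size than H2-Oa and H2-Ob. It was -0.43 ± 0.18 in Myc over wild type, which did not pass (limma adjusted p = 0.0986). The call over both backgrounds was lost with a common median of the arrays (adjusted p = 0.0598), and without wild type 1, wild type 2, TTP 1, TTP 2, Myc 1, Myc 2, Myc TTP 1 or Myc TTP 2 (adjusted p = 0.0512 to 0.0677).

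Of the class II chains, H2-Aa and H2-Ab1 pair as the I-A molecule, and H2-Eb1 is the beta chain of I-E. H2-Aa had log2 intensities of 12.55, 12.21 and 13.04 on the Myc TTP arrays, 12.36, 12.54 and 12.65 in the Myc group, 12.75, 13.45 and 12.78 on the TTP arrays, and 12.89, 13.40 and 12.78 on the wild-type arrays. The Myc arrays lay below all wild-type arrays, but Myc TTP 3 lay above 4 of the 6 arrays without Myc. The difference was -0.51 ± 0.25 in Myc over wild type (limma adjusted p = 0.144) and -0.45 ± 0.18 over both backgrounds (limma adjusted p = 0.0577), neither past the threshold.

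The probe set decided what was read from H2-Aa. A second probe set of the gene, 1438858_x_at, had 10.997, 11.15 and 11.37 on the Myc TTP arrays, 11.47, 11.43 and 11.27 in the Myc group, 12.14, 12.22 and 11.67 on the TTP arrays, and 11.94, 12.14 and 11.67 on the wild-type arrays. Every array with the Myc transgene lay below every array without it, the arrays labelled TTP 3 and wild type 3 included, a separation found in 0.730% of 18765 probe sets. This probe set was called lower over both backgrounds when every probe set was tested on its own (-0.68 ± 0.12, limma adjusted p = 0.0203). Of the other probe sets, 1452431_s_at differed by -0.18 ± 0.20 over both backgrounds. In Myc over wild type it was at 0.18 ± 0.28, above 0, where 1438858_x_at was at -0.53 ± 0.17. The last, 1443783_x_at, was above a log2 intensity of 4 on 4 of the 12 arrays. Probe sets whose names end in x_at or s_at can match transcripts of several genes, and which of these reads H2-Aa best was not tested.

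H2-Ab1 varied least of all the members, over a range of 0.67 on the log2 scale. Its values were 12.32, 12.06 and 12.72 on the Myc TTP arrays, 12.18, 12.26 and 12.05 in the Myc group, 12.22, 12.65 and 12.27 on the TTP arrays, and 12.28, 12.59 and 12.47 on the wild-type arrays. All Myc arrays lay just under the lowest wild-type array, yet the highest array of all was Myc TTP 3. The difference was -0.28 ± 0.17 in Myc over wild type (limma adjusted p = 0.228) and -0.15 ± 0.12 over both backgrounds (limma adjusted p = 0.332). Its other probe sets differed by -0.06 and 0.32 in Myc over wild type, so the direction of H2-Ab1 depended on the probe set.

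H2-Eb1 was the only member whose difference was above 0 in Myc over wild type and over both backgrounds. Its log2 intensity was 12.19, 12.05 and 11.98 on the Myc TTP arrays, 12.32, 11.74 and 12.21 in the Myc group, 11.55, 12.90 and 11.80 on the TTP arrays, and 11.39, 12.07 and 11.97 on the wild-type arrays. The groups overlapped throughout, and both the lowest and the highest array lacked the Myc transgene. H2-Eb1 differed by 0.28 ± 0.31 in Myc over wild type (limma adjusted p = 0.507) and by 0.13 ± 0.22 over both backgrounds (limma adjusted p = 0.635). H2-Ea, the alpha chain partner that is inactive in mice of the C57BL/6 haplotype, stayed near the floor, with group means of 4.39 in Myc TTP, 3.91 in Myc, 3.904 in TTP and 4.17 in wild type.

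The ratio of 2 members on the same array does not change when a whole array is scaled by 1 factor, and H2-Eb1 was taken as the denominator after the values had been seen. The log2 ratio of H2-Ob to H2-Eb1 ran between -1.28 and 0.01 on the 6 arrays with Myc and between 0.12 and 1.63 on the 6 arrays without it. These ranges did not overlap, TTP 3 and wild type 3 included, as was the case for 5.17% of all genes set against H2-Eb1 in the same way. The mean ratio was -0.56 ± 0.50 with Myc and 0.77 ± 0.66 without it (SD, n = 6 each). For H2-Oa the mean ratio was -4.13 ± 0.39 with Myc and -2.84 ± 0.70 without it, with overlap. Since probe sets differ in brightness, only the difference of such a ratio between arrays can be read, and none of these ratios was tested.

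**Figure D2:**
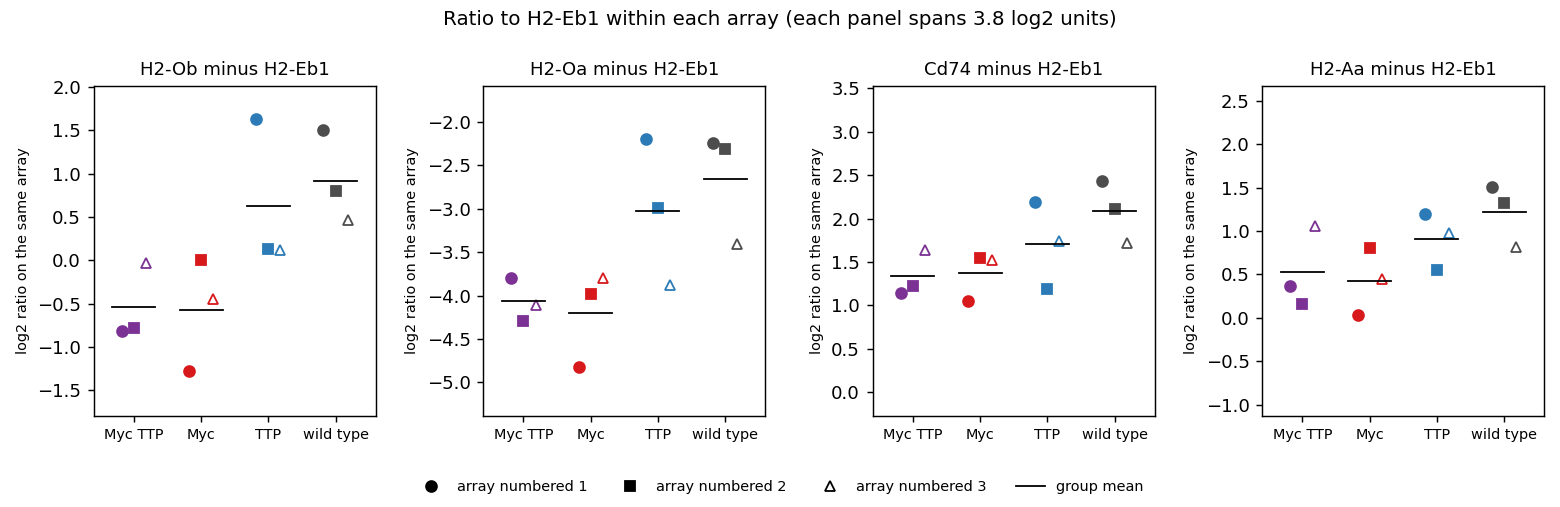
Log2 ratio of 4 members to H2-Eb1 on the same array (vertical axis) by group (horizontal axis), with array numbers as symbols and group means as lines. The H2-Ob ratio of all 6 arrays with the Myc transgene, at most 0.01, is below that of all 6 arrays without it, at least 0.12; the ratios of H2-Oa, Cd74 and H2-Aa overlap.

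H2-DMa, the alpha chain of the peptide exchange factor H2-DM, had log2 intensities of 9.25, 8.75 and 8.78 on the Myc TTP arrays, 8.99, 8.46 and 9.004 in the Myc group, 9.02, 9.997 and 8.70 on the TTP arrays, and 8.93, 9.44 and 9.20 on the wild-type arrays. TTP 2 stood out as high, and the groups overlapped. The difference was -0.37 ± 0.31 in Myc over wild type (limma adjusted p = 0.375) and -0.34 ± 0.22 over both backgrounds (limma adjusted p = 0.219). In the H2-DM and H2-DO system, then, the inhibitor's 2 chains were called over both backgrounds and H2-DMa of the exchange factor was not. H2-DMb2, a beta chain gene of the exchange factor outside the members, was not called either (-0.16 over both backgrounds). The difference between the results of the inhibitor and of the exchange factor was not tested.

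Ciita, the coactivator, moved little. Its log2 intensity was 8.51, 8.08 and 8.38 on the Myc TTP arrays, 7.97, 8.02 and 7.94 in the Myc group, 8.14, 8.66 and 7.79 on the TTP arrays, and 8.32, 8.54 and 8.06 on the wild-type arrays. On this probe set, the brightest of the gene, the Myc arrays lay close together, below all wild-type and all Myc TTP arrays. None of this passed the test: the difference was -0.33 ± 0.23 in Myc over wild type (limma adjusted p = 0.282), 0.35 ± 0.23 in Myc TTP over Myc (limma adjusted p = 0.397) and -0.10 ± 0.16 over both backgrounds (limma adjusted p = 0.621). The separation of Myc TTP above Myc was shared with 32.3% of all genes, and the median of all genes differed by 0.27 in that comparison. It was absent from the other tested Ciita probe sets, 1421210_at (0.18 ± 0.24) and 1447075_at (-0.10 ± 0.28), on which Myc TTP and Myc overlapped. In Myc over wild type 1421210_at was lower without overlap, while 1447075_at overlapped.

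The TTP transgene gave no member call. In TTP over wild type the member differences ran from -0.11 for Ciita to 0.28 for H2-Eb1, and limma called 0 genes (0%), although 149 of 10287 had an unadjusted p under 0.05. In Myc TTP over Myc they ran from -0.06 for Cd74 to 0.35 for Ciita, again with 0 genes called (0%), while 1966 were under 0.05 unadjusted. The interaction, which asks whether the TTP difference depended on Myc, ranged from -0.30 ± 0.44 for H2-Eb1 to 0.46 ± 0.32 for Ciita, with 0 genes called (0%), while 1351 were under 0.05 unadjusted. The standard errors were 0.17 to 0.48 in the first of these comparisons. Same-numbered TTP and wild-type arrays deviated together, most of all those numbered 3 (residual correlation 0.82). Those are the arrays with a Myc signal in the range of the Myc groups, and their part in the shared deviation was not tested. With the number as a block in a fit of these 6 arrays, added after the data were seen, the member standard errors were 0.0976 to 0.22. No member was called in that fit either (limma adjusted p of at least 0.979), and 4 genes of 10287 were called (0.0389%). Cd74 differed by -0.0765, -0.0914 and -0.15 within the pairs numbered 1, 2 and 3, the 1 member with the same sign in all 3, and its difference was -0.10 ± 0.0976 (limma adjusted p = 0.993).

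In Myc TTP over TTP, limma also called 0 genes (0%), while 3707 were under 0.05 unadjusted, and this result rested on single arrays. H2-Ob differed by -1.19 ± 0.33 (limma adjusted p = 0.0607) and H2-Oa by -1.05 ± 0.48 (limma adjusted p = 0.139), sizes close to those in Myc over wild type, with which the comparison shares no array. The 2 comparisons are still not independent, since they share 1 estimate of the spread and same-numbered TTP and wild-type arrays deviated together. Without TTP 3 alone, 2 members were called in Myc TTP over TTP. Without wild type 3 alone, which changes only the estimate of the spread in that comparison, 1 was called (H2-Ob, adjusted p = 0.0348).

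Leaving out wild type 3 and TTP 3, the 2 arrays with a Myc signal in the range of the Myc groups, moved H2-Oa, H2-Ob, Cd74 and H2-Aa farther below 0 in the 3 comparisons of Myc, while H2-Ab1 was at -0.27 without them and at -0.28 with them in Myc over wild type. In Myc over wild type, 3 members were then called lower: H2-Oa (-1.56 ± 0.33, limma adjusted p = 0.00461), H2-Ob (-1.36 ± 0.24, limma adjusted p = 0.00278) and Cd74 (-0.54 ± 0.18, limma adjusted p = 0.0310), beside 34.3% of all genes. In Myc TTP over TTP the same 3 were called, H2-Oa with -1.62 ± 0.33, H2-Ob with -1.58 ± 0.24 and Cd74 with -0.51 ± 0.18 (limma adjusted p = 0.00491, 0.00182 and 0.0410), beside 21.9% of all genes. Over both backgrounds H2-Aa joined them at -0.56 ± 0.19 (limma adjusted p = 0.0266), which made 4 of 8 members beside 37.0% of all genes. H2-Ab1, H2-Eb1, Ciita and H2-DMa were not called in any of these 3 comparisons.

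**Figure D3:**
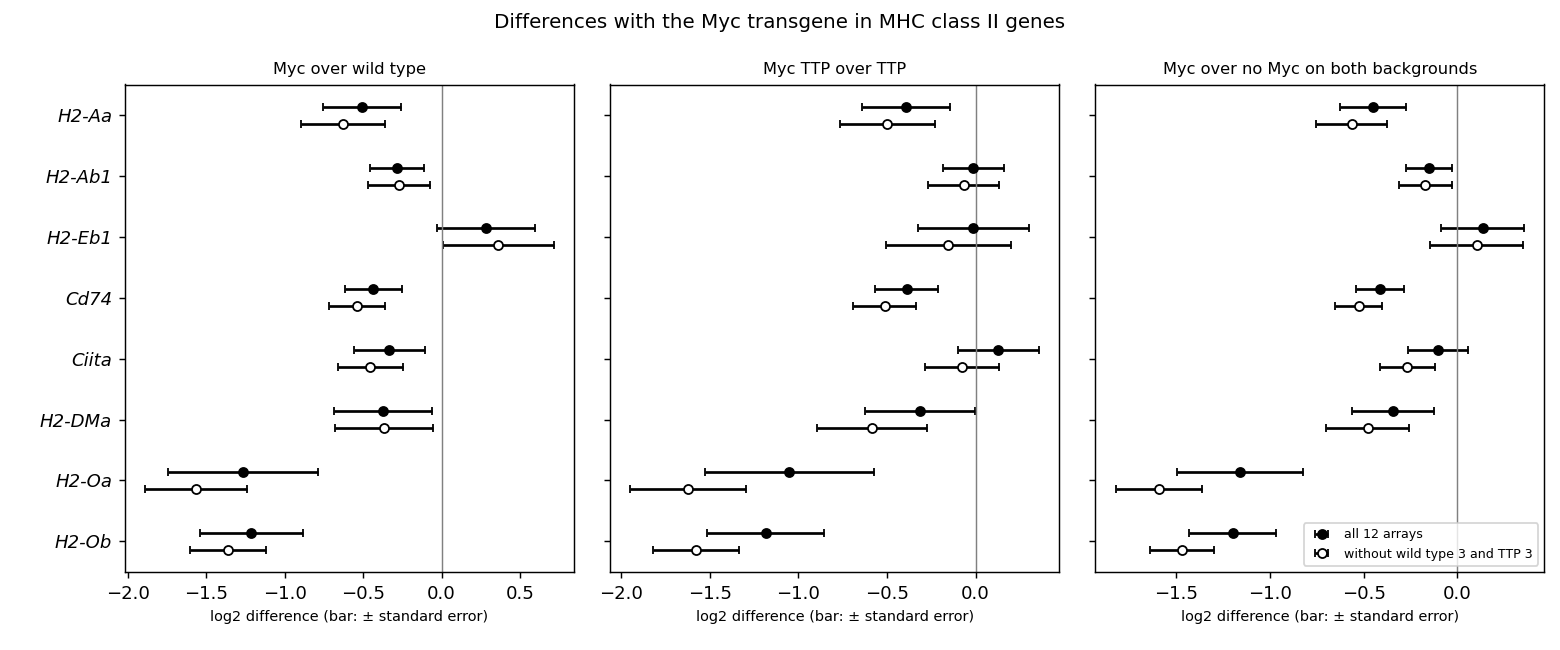
Log2 difference (horizontal axis) with its standard error for each member (rows) in 3 comparisons, with all 12 arrays (filled) and with wild type 3 and TTP 3 left out (open). H2-Oa and H2-Ob lie farthest below 0 in every panel, and H2-Eb1 and Ciita have standard errors that cross 0 in at least 1 panel.

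The members did not vary as 1 block. Over the 12 arrays, which share their groups and their normalization, the closest pairs were H2-Aa with Cd74 (Pearson r = 0.90), H2-Oa with H2-Ob (r = 0.89) and Cd74 with H2-Oa (r = 0.89). H2-Eb1 had r = 0.14 with H2-Oa and -0.17 with H2-Ob. The gene most like H2-Oa was no member but Jak1 (r = 0.99). TTP 2 was the highest array for 5 of the 8 members. In the RefSeq order of genes on chromosome 17 (GRCm38.p6), H2-Oa lies near H2-DMa, and H2-Ob lies beside the H2-Ab1, H2-Aa and H2-Eb1 genes, with only Gm20506 annotated between H2-Ob and H2-Ab1, so the 2 chains that fell together over both backgrounds are not neighbours.

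The genes most like the members in pattern were sought by Pearson correlation over the 12 arrays. Those closest to the mean of the 8 z-scored members were Dstn (r = 0.97), Cyp4f13 (0.97), Tlr4 (0.96), Add1 (0.95), Ccnjl (0.95), Map3k2 (0.95), Cd209g (0.94) and Hhex (0.94). Those closest to Ciita were Snx8 (0.94), Spcs3 (0.92), Dctn1 (0.91), Elmo2 (0.91) and Setd1b (0.91). None of these 13 is a class II gene, and they were picked as the highest of 10287 genes on 12 arrays. H2-DMb2, a beta chain gene of the exchange factor, was the gene most like H2-Eb1 (r = 0.81), and neither was called.

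Among the promoter factors on which Ciita sits, 1 of 7 measured genes was called lower in Myc over wild type, beside 10.6% of all genes. The same 1 of 7 was called lower over both backgrounds, beside 24.6% of all genes. The list's share was thus close to that of all genes in the first comparison and below it in the second. Rfxank, a subunit of the RFX complex on the X box, fell in Myc over wild type, with 6.82 ± 0.37 in Myc and 7.77 ± 0.22 in wild type (SD, n = 3 each; -0.95 ± 0.25, limma adjusted p = 0.0479). Averaged over both backgrounds its difference was -0.57 ± 0.17 (limma adjusted p = 0.0251). With the TTP transgene Rfxank differed less, with 7.31 ± 0.28 in Myc TTP and 7.51 ± 0.28 in TTP. Its partner Rfx5 differed by -0.40 ± 0.16 in Myc over wild type (limma adjusted p = 0.0959) and Rfxap by 0.19 ± 0.13 over both backgrounds (limma adjusted p = 0.255). Nfyb, a subunit of the Y-box factor NF-Y, differed by -0.21 ± 0.14 in Myc over wild type (limma adjusted p = 0.262), and Creb1, which binds the X2 box, by -0.50 ± 0.18 (limma adjusted p = 0.0698). The median of the 7 genes was -0.21 in Myc over wild type, the same as the median of all genes.

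Genes that act upstream of Ciita, on its promoters or in the interferon gamma pathway that induces it, were lower as a list. Of 12 tested, Prdm1 passed the filter only through arrays without Myc, so it is left out of the counts. Of the other 11, 7 were called lower in Myc over wild type beside 10.6% of all genes, 9 over both backgrounds beside 24.6% of all genes, and none higher. Their median difference was -1.0002 in Myc over wild type and -0.66 over both backgrounds, against -0.21 and -0.06 for all genes. Irf8, a factor of B-cell and myeloid identity, averaged 11.73 ± 0.46 in Myc and 13.05 ± 0.43 in wild type, 2.49-fold lower (-1.31 ± 0.29, limma adjusted p = 0.0479). Irf4 averaged 11.69 ± 0.43 in Myc and 12.73 ± 0.28 in wild type (limma adjusted p = 0.0479), and Tcf3, which encodes the E2A proteins, 12.63 ± 0.08 in Myc and 13.06 ± 0.11 in wild type (limma adjusted p = 0.0479). With the TTP transgene Tcf3 was not lower with Myc, at 12.97 ± 0.09 in Myc TTP and 12.84 ± 0.13 in TTP. Ifngr2, a chain of the interferon gamma receptor, fell 2-fold in Myc over wild type (-1.0002 ± 0.23, limma adjusted p = 0.0479), and Irf1, a factor downstream of it, fell 2.16-fold over both backgrounds (-1.11 ± 0.28, limma adjusted p = 0.0170).

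Prdm1, which encodes Blimp-1, a repressor of Ciita in plasma cells, was below the floor on all 6 arrays with Myc, at 2.09 to 2.43, against 2.54 to 5.36 on the 6 arrays without Myc, 4 of them above the floor. It could enter the test only through arrays without Myc, so no call and no fold are given for it. Ciita itself, between these regulators and its targets, was not called in any of the 6 comparisons.

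Genes for peptide loading and class II turnover were also lower as a list, leaving out Marchf1, which passed the filter only with arrays without Myc. Of the other 10, 5 were called lower in Myc over wild type beside 10.6% of all genes, 8 over both backgrounds beside 24.6% of all genes, and none higher. Ctss, the protease that makes the last cut of the invariant chain in B cells, had 11.34, 11.50 and 11.71 on the Myc TTP arrays, 11.62, 11.89 and 12.15 in the Myc group, 12.47, 12.44 and 12.24 on the TTP arrays, and 12.55, 12.83 and 12.23 on the wild-type arrays. All 6 arrays with Myc lay below all 6 without it, as was the case for 0.865% of all genes. The difference over both backgrounds was -0.76 ± 0.12, or 1.69-fold lower (limma adjusted p = 0.0169). Ctsl, another lysosomal protease, fell 4.80-fold in Myc over wild type (-2.26 ± 0.47, limma adjusted p = 0.0479), and Ctsb fell 2.05-fold (-1.04 ± 0.29, limma adjusted p = 0.0485). Ifi30, the thiol reductase GILT that unfolds antigens, fell 1.55-fold (-0.64 ± 0.18, limma adjusted p = 0.0479).

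Cd83, a surface protein that protects class II molecules from degradation by opposing the ubiquitin ligase March1, averaged 6.43 ± 1.96 in Myc and 9.72 ± 0.72 in wild type (-3.29 ± 0.93, limma adjusted p = 0.0490). Marchf1, which encodes March1, was above the floor on 2 of the 6 arrays with Myc and on 5 of the 6 without it, with 3.17 to 5.17 on the arrays with Myc and 3.98 to 8.46 on those without. No call is given for it, since it reached the filter through the arrays where it was high.

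The costimulation genes showed the same direction, with 2 of 4 tested genes called lower in Myc over wild type beside 10.6% of all genes, and all 4 over both backgrounds beside 24.6%. Cd40, the receptor through which T-cell help reaches B cells, averaged 6.61 ± 1.02 in Myc and 8.98 ± 0.37 in wild type (-2.37 ± 0.53, limma adjusted p = 0.0479). Cd1d1, which presents lipids, fell 2.15-fold (-1.10 ± 0.25, limma adjusted p = 0.0479). Over both backgrounds Icosl fell 4.26-fold (-2.09 ± 0.52, limma adjusted p = 0.0169) and Cd86 2.22-fold (-1.15 ± 0.38, limma adjusted p = 0.0319). Cd80 and Tnfsf9 were below the floor on every array. Without wild type 3 and TTP 3, and again without Prdm1 and Marchf1, 10 of 11 upstream genes, 8 of 10 loading genes, 3 of 4 costimulation genes and 2 of 7 DNA-binding factors were called lower in Myc over wild type. All genes had a share of 34.3% called lower in that setting, and the DNA-binding factors lay below it. With all arrays the counts of these 4 lists in Myc over wild type were 0 under quantile normalization, under a common median, and with the replicate number as a block, since no gene of the whole table was called there, although 4183 to 4443 had an unadjusted limma p under 0.05. Of the other class II genes, H2-Ea, H2-Eb2 and H2-DMb2, none of 3 was called, and the last 2 differed by 0.33 ± 0.44 and -0.16 ± 0.25 over both backgrounds.

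**Figure D4:**
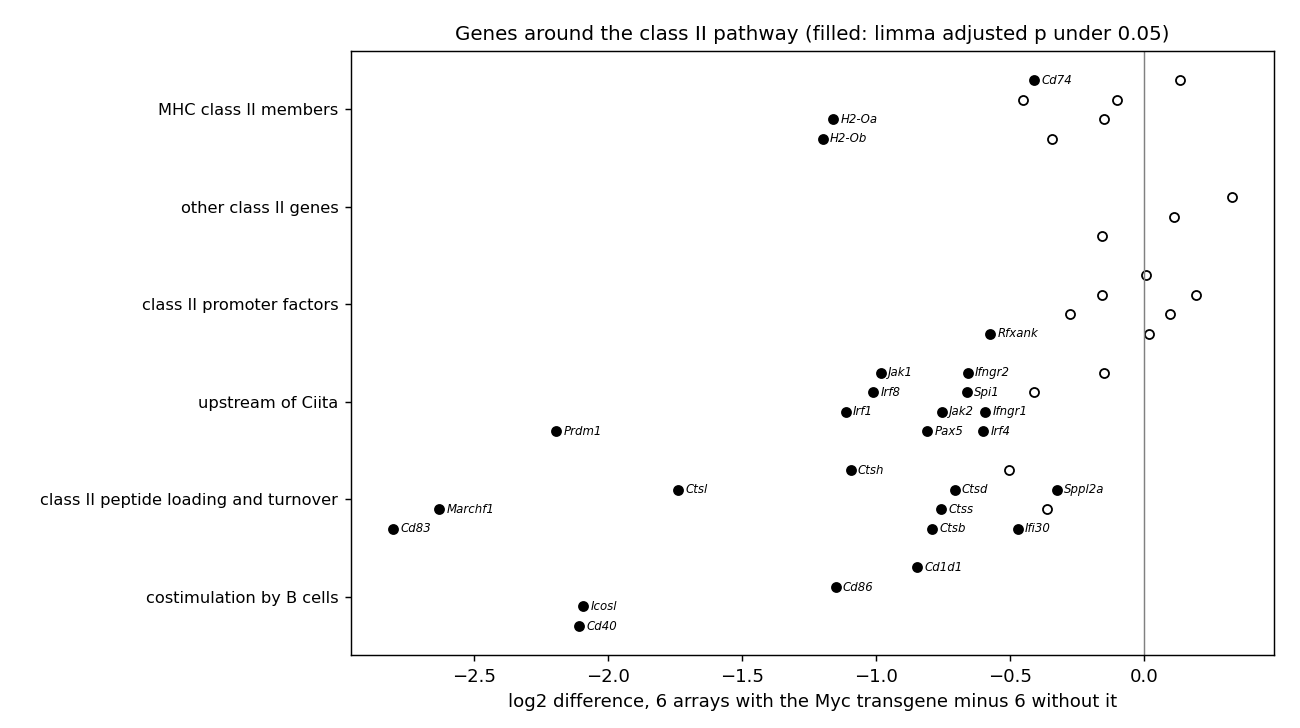
Log2 difference over both backgrounds (horizontal axis) for each tested gene of the members and of 5 pathway lists (rows, with points spread vertically for legibility); filled points were called by limma and are named. The other members and the DNA-binding factors lie nearer to 0 than H2-Oa and H2-Ob. Leaving out Prdm1 and Marchf1, 9 of 11 upstream genes, 8 of 10 loading genes and all 4 costimulation genes were called lower, beside 24.6% of all genes. Prdm1 and Marchf1 are drawn but passed the filter only through arrays without Myc.

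Markers of other cell types and stages moved in the same direction as the members that were called. The mature B-cell list, of which 11 genes were tested, had 5 called lower in Myc over wild type and none higher, beside 10.6% of all genes, and its mean log2 intensity was 9.08 to 9.46 on the Myc TTP arrays, 8.71 to 10.07 in the Myc group, 9.72 to 11.33 on the TTP arrays and 10.25 to 11.08 on the wild-type arrays. The pro-B and pre-B list had 9 of 12 called lower, at 10.16 to 10.68, 8.82 to 10.68, 10.55 to 11.999 and 11.07 to 11.83 in the same order of groups. The B-lineage identity list had 5 of 8 called lower, at 12.47 to 12.61, 12.18 to 12.74, 12.57 to 13.25 and 12.86 to 13.46. Without wild type 3 and TTP 3, 9 of 11 mature B-cell genes, 12 of 12 pro-B and pre-B genes and 8 of 8 B-lineage identity genes were called lower, beside 34.3% of all genes. On the mature B-cell list as for H2-Oa, TTP 3 was the lowest array without the Myc transgene and Myc 3 was the highest with it.

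Conventional dendritic cells carry far more class II protein than B cells, and 4 of their 8 listed markers were tested. Of these, Itgax was above the floor on 2 of the 6 arrays with Myc and Cd209a on 1, so they passed through the arrays without Myc and no count of calls is given for the list. The list mean takes in Itgax and Cd209a, so its contrast between groups is partly set by the filter and is not read as a difference. It was 3.81 to 4.81 on the Myc TTP arrays and 2.76 to 5.39 in the Myc group. On the TTP arrays it was 4.87 to 7.44, and on the wild-type arrays 6.49 to 7.72. The defining genes Zbtb46, Batf3 and Xcr1 were below the floor on all 12 arrays. For plasmacytoid dendritic cells, some of which carry B220, 6 of 8 markers were called lower in Myc over wild type, beside 10.6% of all genes. Their list means were 7.93 to 8.78 on the Myc TTP arrays and 6.85 to 8.65 in the Myc group. On the TTP arrays they were 8.58 to 10.14, and on the wild-type arrays 9.22 to 10.39. Monocyte and macrophage markers had 2 of 11 called lower in Myc over wild type, beside 10.6% of all genes. Over both backgrounds 10 of 11 were called lower, beside 24.6% of all genes. The list means were 8.51 to 9.24 on the Myc TTP arrays and 7.66 to 8.85 in the Myc group. They were 9.02 to 10.90 on the TTP arrays and 9.46 to 10.30 on the wild-type arrays.

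Granulocyte markers had 6 of 10 and T and NK markers 2 of 5 called lower in Myc over wild type, each leaving out 1 gene that passed the filter only with arrays without Myc, and erythroid markers had 1 of 5, beside 10.6% of all genes. None of these lists had a gene called higher in that comparison. The granulocyte list mean, which takes in the gene left out of the count, was 6.54, 7.91 and 11.69 on Myc 1, 2 and 3. It was 10.41 to 11.44 on the Myc TTP arrays, 11.39 to 13.24 on the TTP arrays and 11.95 to 12.87 on the wild-type arrays. The contrast of this mean between groups is partly set by the filter, and Myc 3 lay far above Myc 1 and Myc 2. Without wild type 3 and TTP 3 the counts were 10 of 10 granulocyte, 4 of 5 T and NK, 5 of 5 erythroid, 8 of 8 plasmacytoid dendritic cell and 10 of 11 monocyte and macrophage markers, beside 34.3% of all genes. Over both backgrounds 1 gene of the T and NK list, Cd8a, was called higher with all arrays (0.71 ± 0.23, limma adjusted p = 0.0329), and it is named after its values were seen. Cd3e, Cd3g and Hba-a1 were below the floor on every array. The part of these lists, and of the B-cell stages, in the differences of H2-Oa, H2-Ob, Cd74 and the pathway lists was not tested. Why H2-Eb1 and Ciita were not called on the same arrays was not tested either.

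**Figure D5:**
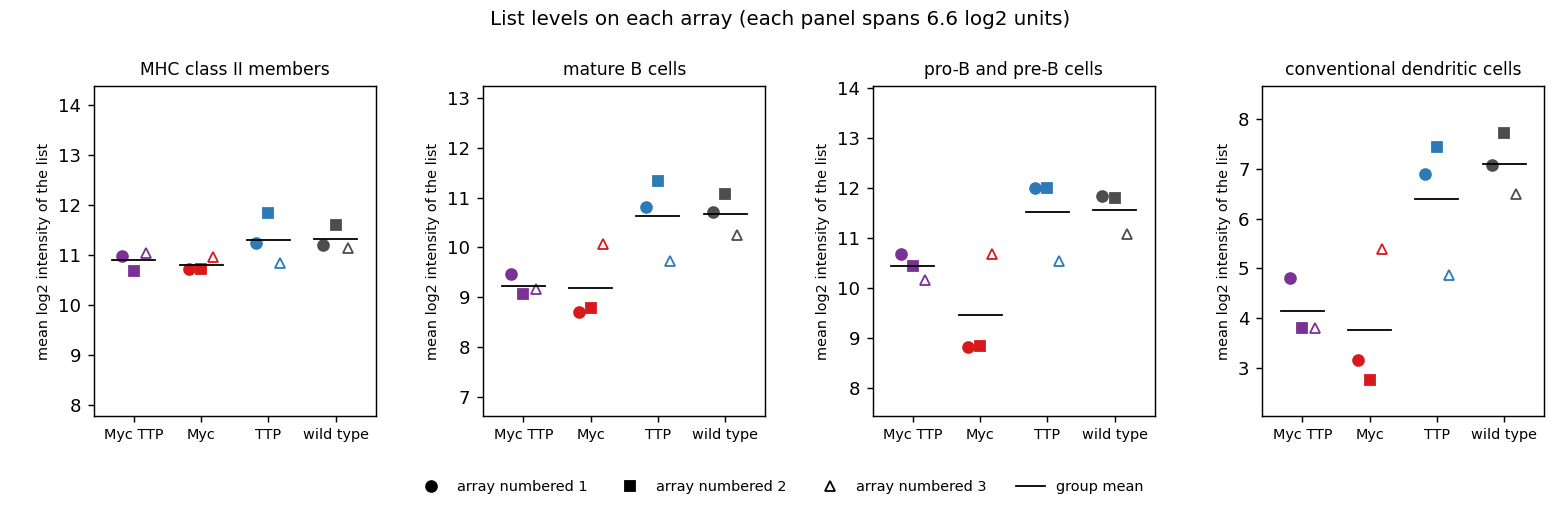
Mean log2 intensity of the tested genes of 4 lists (vertical axis) on each array, by group (horizontal axis), with array numbers as symbols and group means as lines. The 8 members span a narrower range, 10.68 to 11.84, than the mature B-cell (8.71 to 11.33) and pro-B and pre-B (8.82 to 11.999) lists. The conventional dendritic cell list (2.76 to 7.72) takes in Itgax and Cd209a, which passed the filter only through arrays without Myc. Its range and group contrast are thus partly set by the filter. TTP 3 is the lowest array without Myc on all 4.

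The scaling of the arrays sets what a small difference is measured against. The median of all genes was -0.21 in Myc over wild type as deposited, against 0.04 with quantile normalization and 0.05 when the arrays were set to a common median, so a difference near -0.21 there is no more than that of a typical gene. Relative to the median of all genes, H2-Oa was at -1.06, H2-Ob at -1.002, H2-Aa at -0.30, Cd74 at -0.22, H2-DMa at -0.16, Ciita at -0.12, H2-Ab1 at -0.08 and H2-Eb1 at 0.49 in Myc over wild type. Under each of these 3 scalings 7 of the 8 members were below 0 in that comparison and H2-Eb1 was above it. Over both backgrounds the sign of Ciita turned with quantile normalization, at 0.04.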

How the data were processed

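Total RNA of B220-positive bone marrow cells was measured on 12 arrays, 3 in each of 4 groups. The authors deposited 1 intensity per probe set and array, summarised by GCRMA per the submitters' processing notes, which corrects background and normalizes between arrays. Its version is not given in the sources used here. The deposited intensity values were on a linear scale and were converted to log2 without a pseudocount. Of 45101 probe sets, 34958 had 1 gene symbol, 932 had several and 9211 had none in the platform annotation used here, and 34754 of the first matched RefSeq (GRCm38.p6) by gene identifier. Precision is set by the number of arrays.

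The probe set with the highest mean stood for a gene, and genes with a log2 intensity above 4 on at least 3 arrays were tested. limma 3.58.1 in R 4.3.3 (lmFit, eBayes with an intensity trend) was fitted on all 10287 genes and 12 arrays with a mean per group, which left 8 residual degrees of freedom, after the script had been tested on simulated data. The simulated spread was smaller than that of these data, so this checked the code and not the power of the test. P-values were two-sided and adjusted by Benjamini-Hochberg over all genes, and called when under 0.05. Residuals of same-numbered arrays correlated at 0.50 to 0.82 in all 3 pairs of TTP with wild type, so the number was taken as a pairing for that comparison only, in an added fit. In no other pair of groups did all 3 correlations lie above 0.1, and those of Myc with wild type were all below 0. No 2 arrays held identical values.

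The members, the gene lists and the tests were chosen with earlier results of these data known, so no list is independent evidence of its direction. The named genes are all members, up to 4 genes of each pathway list with the smallest p in Myc over wild type or over both backgrounds, and the 8 and 5 genes most like the members and Ciita; Marchf1, the second H2-Aa probe set and the ratio to H2-Eb1 were added after their values were seen. Listed genes with no value of their own, H2-DMb1 among them, were not analysed here. Alternatives were the filter, log2 of intensity plus 16, 2 other normalizations, the choice of probe set, the variance model, the replicate number as a block, and leaving out arrays.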

Additional observations from a re-analysis of the deposited data

How the results depend on the processing

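Members called in Myc over wild type numbered 1 (H2-Ob), and 0 without the filter, under quantile normalization, with a common median, with the probe set of largest SD, without the intensity trend, with the replicate block and with every probe set on its own. It was 3 without both wild type 3 and TTP 3, and 4 when all 4 arrays numbered 3 were left out, and single arrays left out gave 0 to 2. Genes called there numbered 1135, against 0 under the first 6 of those settings (3900 to 4449 with an unadjusted limma p under 0.05), 2110 with the spread of the 2 groups alone, 1 with every probe set, 4965 without wild type 3 and TTP 3, 5626 with no array numbered 3, and 0 to 3609 without single arrays. Over both backgrounds, 1 to 4 members and 2151 to 5806 genes were called without single arrays, against 3 and 4449. In Myc TTP over TTP, 0 members and 0 genes became 3 and 4412 without wild type 3 and TTP 3, 4 and 4682 when leaving out the arrays numbered 3, 0 genes became 1 without the trend, and single arrays gave 0 to 2 members and 0 to 3951 genes. No member was called in the other comparisons under any setting run. Their genes called numbered 4 in TTP over wild type with the replicate block on these 6 arrays alone, which was chosen after seeing the data, and otherwise 1 there (with every probe set, without the arrays numbered 3, without both wild type 3 and TTP 3; single arrays 0 to 1), 1 (common median, without wild type 3 and TTP 3) and 1514 (leaving out the arrays numbered 3; single arrays 0 to 28) in Myc TTP over Myc, and 235 (without the arrays numbered 3) and 1 (every probe set) in the interaction.

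Signs turned only for members that were not called. With the probe set of largest SD, H2-Ab1 was 0.32 in Myc over wild type and 0.0458 over both backgrounds, and Ciita -0.36 in Myc TTP over TTP. Ciita was also -0.077 there without wild type 3 and TTP 3, -0.11 with no array numbered 3, and 0.0403 over both backgrounds under quantile normalization. Without single arrays, differences in Myc TTP over TTP ran from -0.19 to 0.14 for H2-Ab1, from -0.28 to 0.39 for H2-Eb1, from -0.58 to 0.0646 for H2-DMa and from -0.077 to 0.36 for Ciita, and over both backgrounds from -0.20 to 0.0147 for Ciita. Causes were not tested. The replicate block over all arrays changed no member call other than that of H2-Ob in Myc over wild type (adjusted p = 0.0637). The array numbers do not come with a shared litter or day in the labels, and only for TTP with wild type did all 3 same-numbered pairs deviate together. For Myc TTP with TTP the residual correlations were 0.37, -0.06 and 0.50 for numbers 1, 2 and 3. For Myc with TTP they were -0.44, -0.33 and -0.65. With 3 arrays a group, the standard errors of the members were 0.17 to 0.48 on the log2 scale in Myc over wild type.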
